A study of Homo sapiens with 6 samples.

Results

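The aminoacyl-tRNA synthetases were examined in NALM6 cells, a human B-ALL (B-cell acute lymphocytic leukemia) line, after exposure to the covalent CDK7 inhibitor THZ1. The 36 genes were taken as a fixed list of symbols, 20 for cytosolic and 16 for mitochondrial enzymes, and each matched 1 symbol of the FPKM table and 1 Ensembl identifier among the 57905 genes of the count table. RNA-SEQ compared 3 libraries of cells given 500 nM THZ1 with 3 of cells given the solvent DMSO, all collected at 24 h. Both arms were the same unmodified line, so the data describe a single cell line at 1 dose and 1 time point. The labels do not say whether the libraries of a treatment came from separate cultures, so p-values measure only the spread between these libraries, which may be technical.

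Each aminoacyl-tRNA synthetase joins 1 kind of amino acid to its tRNA, the step that sets the meaning of the genetic code. Cells keep separate enzymes for the cytosol and the mitochondrion, all encoded in the nucleus, although GARS and KARS each give rise to an enzyme for both places and are counted as cytosolic here. EPRS joins both glutamate and proline, FARSA and FARSB are the subunits of the cytosolic phenylalanine enzyme, and several cytosolic enzymes assemble into the multisynthetase complex. Many cytosolic synthetase genes are known targets of ATF4, the transcription factor of the amino acid response.

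The libraries held 11015480 to 11164840 counts with DMSO and 7876402 to 8314306 with THZ1, and every member was covered by 15 to 4227 counts per library. All 36 passed the filter on low counts that left 16622 genes to test. CPM (counts scaled by library size and TMM factors) is given for each library in the order of replicates 1 to 3, and a log2 fold change is THZ1 against DMSO. A gene was called at an adjusted p-value below 0.05. All 9 B-cell precursor markers examined were expressed, with a summed level of 3454 to 3721 CPM with DMSO and 1644 to 1739 CPM with THZ1. The 4 myeloid markers summed to 3.88 to 4.59 CPM and 17.0 to 18.0 CPM, the 3 T cell markers to at most 0.969 CPM and the erythroid markers to at most 0.263 CPM in any library. Whether these marker shifts bear on the synthetases was not tested. Levels are relative to each library's RNA, and less RNA per cell cannot be told apart from a loss of cells in bulk samples.

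Most synthetase genes were lower after THZ1, with a few exceptions. Of the 36, 30 were lower, 3 were higher (VARS2, QARS and MARS) and 3 were not called (TARS, MARS2 and SARS2). Lower calls thus made up 83.3% of the members, against 41.1% of all genes tested and 50.6% of the genes with a mean of at least 10 CPM, a level that 34 of the 36 reached. Higher calls made up 43.5% of all genes tested and 35.8% of those with at least 10 CPM. The libraries of the treatments did not overlap for 34 of the 36, where this held for 84.7% of all genes tested. The median log2 fold change was −1.21 over the 20 cytosolic and −0.67 over the 16 mitochondrial members, beside 0.03 over all genes tested. With upper quartile factors the 3 medians were −1.02, −0.48 and 0.22, so the scaling moved members and background by the same amount. In the FPKM table (pseudocount 1) they were −1.32, −1.09 and −0.15, which leaves a smaller gap between the compartments.

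The 6 members with a log2 fold change of −1.5 or below were all cytosolic, FARSB, DARS, IARS, AARS, YARS and LARS. They made up 16.7% of all 36 members and 30.0% of the cytosolic members, and calls of that size in the lower direction made up 12.9% of all genes tested and 12.1% of those with at least 10 CPM. No member rose by that much, where 24.6% of all genes and 12.0% of those with at least 10 CPM did. Just short of this size lay FARSA, at −1.4996, and LARS2, at −1.49.

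FARSB, the beta subunit of the phenylalanine enzyme (chromosome 2, from 223431618 to 223520811 on GRCh37), changed most. Its levels were 79.4, 77.3 and 77.6 CPM with DMSO and 11.3, 13.3 and 10.96 CPM with THZ1, so that every treated library held less than the lowest control by a wide margin. This 6.59-fold decrease (log2 fold change −2.72, standard error 0.10, adjusted p = 5.6e-21) ran from −2.82 to −2.68 with each library left out. The catalytic alpha subunit FARSA fell less, from 171, 152 and 176 CPM to 60.5, 60.4 and 55.6 CPM. The 2 genes encode partners of the same enzyme, but their transcripts were left at 15.2% and 35.4% of the DMSO level.

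DARS, which charges aspartate (chromosome 2, from 136663451 to 136743670), had 132, 133 and 142 CPM with DMSO and 26.7, 27.7 and 25.3 CPM with THZ1. IARS, the isoleucine enzyme (chromosome 9, from 94972489 to 95056136), was the most abundant member by CPM, with 336, 346 and 333 CPM, and fell to 65.4, 73.6 and 62.6 CPM. AARS, which charges alanine (chromosome 16, from 70285886 to 70323610), went from 246, 252 and 254 CPM to 56.8, 48.2 and 48.7 CPM. These genes were left at 19.6% (DARS), 19.8% (IARS) and 20.5% (AARS) of their DMSO level, with log2 fold changes of −2.35 for DARS, −2.33 for IARS and −2.29 for AARS. YARS, the tyrosine enzyme (chromosome 1, from 33240838 to 33283632), fell from 319, 305 and 319.998 CPM to 71.1, 68.2 and 66.8 CPM (log2 fold change −2.19, standard error 0.07). LARS, which charges leucine and also serves as a leucine sensor, had 104, 108 and 101 CPM with DMSO and 28.5, 30.7 and 30.6 CPM with THZ1 (log2 fold change −1.80, standard error 0.09). The treatments lay far apart for all 6 genes.

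A middle group of cytosolic genes fell by smaller amounts. WARS, the tryptophan enzyme and a known interferon-induced gene, fell by 1.36 on the log2 scale and KARS, the lysine enzyme, by 1.31. RARS, for arginine, and EPRS, for glutamate and proline, were nearly alike at −1.22 and −1.21 (standard errors 0.09 and 0.08). CARS (cysteine) stood at −0.86, NARS (asparagine) at −0.74, HARS (histidine) at −0.67 and SARS (serine) at −0.63, all called at adjusted p-values of at most 1.7e-09. GARS, the glycine gene that serves both compartments, had 235, 236 and 242 CPM with DMSO and 203, 176 and 172 CPM with THZ1 (log2 fold change −0.37, standard error 0.07, adjusted p = 1.7e-05). Its treated libraries all lay below the controls, and it was left at 77.2% of the DMSO level. TERF2IP, whose exons overlap 176 bases of KARS on the opposite strand, moved the other way, from 98.8 ± 10.5 to 221 ± 5.20 CPM (SD, n = 3 each), and its part in the KARS count was not tested.

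TARS and VARS had the log2 fold changes nearest 0 among the cytosolic genes, and MARS and QARS were called higher. TARS, for threonine (chromosome 5, from 33440802 to 33468196), had 191, 183 and 196 CPM with DMSO and 177, 172 and 169.9 CPM with THZ1. Its log2 fold change of −0.13 was not called (adjusted p = 0.068), turned to 0.060 with upper quartile factors and was called without DMSO replicate 2 (−0.18, adjusted p = 0.011). TARS was also called lower with library sizes alone (−0.38, adjusted p = 4.9e-06) and with no filter (−0.22, adjusted p = 0.0057). Every fit of the FPKM table called it lower too (adjusted p = 0.0056 to 0.0074 by limma). VARS, for valine, had 206, 191 and 216 CPM against 186, 174 and 181 CPM, and its log2 fold change of −0.18 (adjusted p = 0.019) was 0.016 with upper quartile factors and was not called there, nor with RLE factors (adjusted p = 0.15), DESeq2 (adjusted p = 0.18), at least 10 counts in every library (adjusted p = 0.54) or without THZ1 replicate 2 (adjusted p = 0.071). The treatments did not overlap for either gene, but the gap between the nearest libraries was small. MARS, the methionine enzyme (chromosome 12, from 57869228 to 57911352), rose from 209, 212 and 216 CPM to 282, 233 and 244 CPM (log2 fold change 0.25, standard error 0.07, adjusted p = 0.0017). That call was lost without THZ1 replicate 1, its highest library (0.16, adjusted p = 0.057), and with library sizes alone (adjusted p = 0.93). It was also lost in every fit of the FPKM table (adjusted p = 0.43 to 0.45 by limma). QARS, the glutamine enzyme (chromosome 3, from 49133365 to 49142563), rose from 212, 213 and 225 CPM to 306, 266 and 295 CPM (log2 fold change 0.42, standard error 0.07, adjusted p = 1.8e-06).

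MARS shares exons with other genes on the opposite strand, 519 bases with ARHGAP9 and 355 bases with DDIT3, which encodes the stress factor CHOP. DDIT3 had 21.3, 20.6 and 25.8 CPM with DMSO and 43.4, 35.2 and 35.6 CPM with THZ1. The strand setting of the counting is not stated, so reads of the overlap could be shared or dropped, and the part of this in the rise of MARS was not tested.

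**Figure D1:**
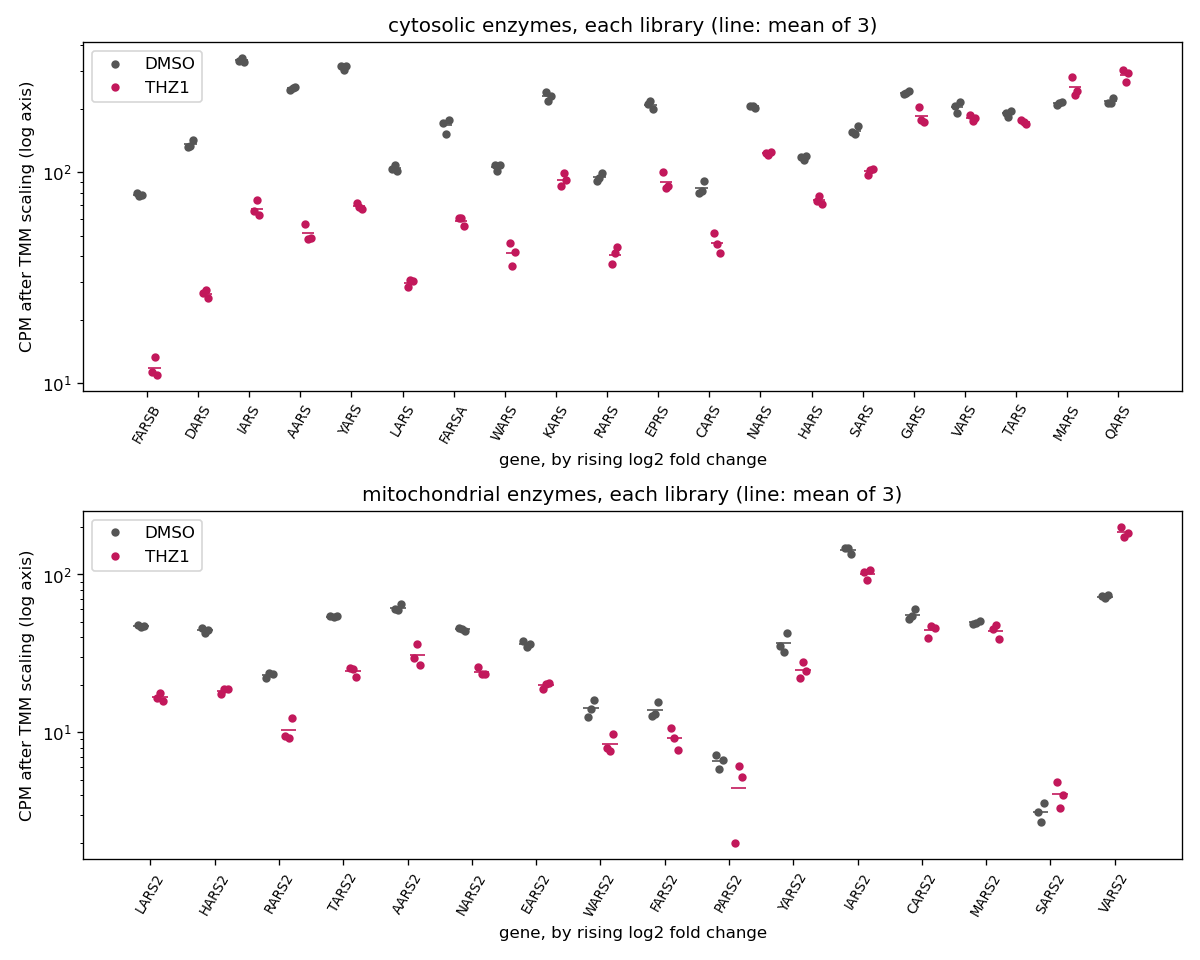
CPM of each member in each of the 6 libraries on a log axis, DMSO in grey and THZ1 in magenta, with the mean of 3 as a line, for cytosolic (top) and mitochondrial (bottom) enzymes. The treatments lie apart for all 20 cytosolic genes and overlap for PARS2 and SARS2 among the mitochondrial ones, whereas TARS, VARS and MARS2 lie close together and change sign with upper quartile factors.

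Among the 16 mitochondrial members, 13 were lower (81.25%), 1 was higher and 2 were not called, and none fell by 1.5. Of all genes tested, 41.1% were lower, 43.5% were higher and 12.9% were lower by at least 1.5. The same shares were 50.6%, 35.8% and 12.1% of the genes with at least 10 CPM. Members lower by at least 1.5 numbered 2 with library sizes alone and 1 in several other alternatives. LARS2, for leucine (chromosome 3, from 45430053 to 45596218), had 47.6, 46.7 and 46.9 CPM with DMSO and 16.6, 17.9 and 15.8 CPM with THZ1 (log2 fold change −1.49, standard error 0.10, adjusted p = 2.2e-14). HARS2, for histidine, fell from 45.8, 42.8 and 44.2 CPM to 17.4, 18.8 and 18.8 CPM (log2 fold change −1.27). RARS2, for arginine, went from 22.0, 23.9 and 23.5 CPM to 9.47, 9.14 and 12.3 CPM, and TARS2, for threonine, from 54.2, 53.8 and 54.4 CPM to 25.6, 25.3 and 22.5 CPM. Their log2 fold changes were −1.16 and −1.14 (standard errors 0.14 and 0.10). AARS2, for alanine, followed at −0.995, with 60.2, 59.6 and 64.6 CPM against 29.7, 36.1 and 26.7 CPM. In each of these 5 genes the highest treated library held less than the lowest control library.

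Smaller decreases were called for NARS2 (−0.89), EARS2 (−0.87), WARS2 (−0.75), FARS2 (−0.58), YARS2 (−0.57) and IARS2 (−0.50), the enzymes for asparagine, glutamate, tryptophan, phenylalanine, tyrosine and isoleucine. FARS2 had 12.7, 13.0 and 15.6 CPM with DMSO and 10.7, 9.14 and 7.75 CPM with THZ1, and YARS2 35.4, 32.1 and 42.9 CPM against 22.2, 27.8 and 24.3 CPM. Neither overlapped, although both lay close. IARS2 was the most abundant mitochondrial member with DMSO, at 148, 146 and 134 CPM, and had 104, 91.8 and 107 CPM with THZ1. CARS2, for cysteine, had 52.0, 54.2 and 60.6 CPM against 39.8, 47.2 and 46.0 CPM (log2 fold change −0.33, adjusted p = 0.0018). It was not called with upper quartile factors (adjusted p = 0.18) or at least 10 counts in every library (adjusted p = 0.057). PARS2, for proline, rested on few counts, with 7.19, 5.82 and 6.67 CPM with DMSO and 1.97, 6.09 and 5.21 CPM with THZ1. The treatments overlapped for it, THZ1 replicate 1 lay far below its companions, and without that library the log2 fold change of −0.57 (adjusted p = 0.035) became −0.22 (adjusted p = 0.37). The call was also lost without DMSO replicate 1 (adjusted p = 0.085), with RLE (0.061) or upper quartile factors (0.16), with DESeq2 (0.12), under a minimum of 10 counts per library (0.11) and in the FPKM table with a pseudocount of 0.1 (0.059).

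VARS2, which charges valine in the mitochondrion, stood apart from every other member. This gene on chromosome 6, from 30881982 to 30894236, had 72.6, 71.1 and 73.6 CPM with DMSO and 199.9, 172 and 183 CPM with THZ1. Every treated library lay far above every control, a 2.55-fold increase (adjusted p = 5.5e-17). Its log2 fold change was 1.35 (standard error 0.07), and leaving out any library gave 1.29 to 1.39. In the annotation used, the lncRNA gene ENSG00000288473 shares 4073 bases, or 63.0%, of the exons of VARS2 on the same strand. That gene is not in the count table, and its part in the rise was not tested. MARS2, for methionine, had 48.7, 49.5 and 50.9 CPM against 45.1, 47.8 and 39.0 CPM (log2 fold change −0.18, adjusted p = 0.074, 0.016 with upper quartile factors). It was called lower without DMSO replicate 2 (adjusted p = 0.041) or THZ1 replicate 2 (adjusted p = 0.031). MARS2 was also called lower with library sizes alone (adjusted p = 1.4e-04), with no filter (0.013) and in every FPKM fit (0.041 to 0.049 by limma).

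SARS2, for serine, was barely covered, with 3.14, 2.705 and 3.54 CPM against 4.87, 3.32 and 4.01 CPM. Its log2 fold change of 0.38 was not called (adjusted p = 0.16), and its direction was not settled. It was called lower in the deposited FPKM table (−0.56, adjusted p = 0.014 by limma) and higher with upper quartile factors (0.57, adjusted p = 0.037) or at least 10 counts in every library (0.51, adjusted p = 0.047). In the annotation, 48.2% of the exons of SARS2 are shared with ENSG00000269547 on the same strand, a gene with 0 counts in all 6 libraries, so reads that fit both may not have been counted.

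In sum, the cytosolic transcripts went from 3647, 3589 and 3710 CPM to 2086, 1950 and 1966 CPM, leaving 54.8% of the DMSO level. The mitochondrial transcripts went from 705, 695 and 717 CPM to 580, 563 and 566 CPM, leaving 80.7%. The treatments did not overlap for either sum. Without VARS2, an option chosen after seeing the data, the mitochondrial sum went from 632, 624 and 644 CPM to 380, 392 and 383 CPM, leaving 60.7%. The ratio of cytosolic to mitochondrial CPM was 5.16 to 5.17 with DMSO and 3.46 to 3.60 with THZ1, and without VARS2 it was 5.75 to 5.77 and 4.98 to 5.50. These sums describe a list chosen with results known and were not tested.

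The enzymes for the same amino acid were then compared within each library, as the log2 ratio of cytosolic to mitochondrial CPM, which does not depend on the scaling. The 16 amino acids gave 17 pairs, because phenylalanine has both FARSA and FARSB. The ratios of the treatments did not overlap for 15 pairs, each with p = 0.1 by a two-sided exact permutation test over the 6 libraries, the smallest p that 3 against 3 allows. These are 88.2% of the pairs, near the 84.7% of single genes whose treatments did not overlap. The ratio was lower with THZ1 in 11 of these 15 and higher in 4. FARSB against FARS2 changed most, from 2.64, 2.57 and 2.31 to 0.09, 0.54 and 0.50. IARS against IARS2 went from 1.19, 1.24 and 1.31 to −0.67, −0.32 and −0.77, positive in every DMSO library and negative in every THZ1 library. YARS against YARS2 went from 3.17, 3.25 and 2.90 to 1.68, 1.29 and 1.46. For valine the ratio fell by 1.53 on the log2 scale, to between −0.10 and 0.02, with log2 fold changes of 1.35 for VARS2 and −0.18 for VARS (0.016 with upper quartile factors).

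The 4 pairs in the other direction were those of threonine, histidine, methionine and asparagine. TARS against TARS2 rose from 1.82, 1.77 and 1.85 to 2.79, 2.77 and 2.92, a change of 1.01 in a pair whose cytosolic member was not called. HARS against HARS2 rose from 1.36, 1.42 and 1.43 to 2.07, 2.03 and 1.90. MARS against MARS2 changed by 0.43 and NARS against NARS2 by 0.16. RARS and RARS2 kept a ratio of 1.97 to 2.08 with DMSO and 1.84 to 2.17 with THZ1 (change −0.04, exact permutation p = 0.7), and EPRS against PARS2 also overlapped (exact permutation p = 0.4).

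**Figure D2:**
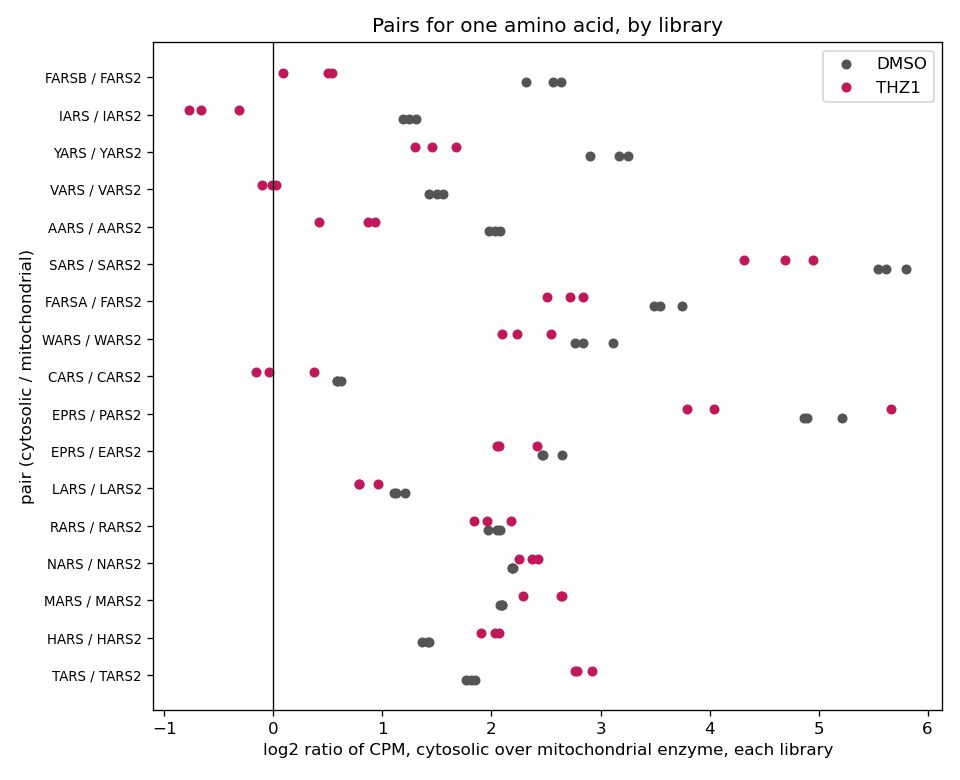
Log2 ratio of cytosolic to mitochondrial CPM in each of the 6 libraries (x axis) for the 17 pairs of enzymes for the same amino acid, DMSO in grey and THZ1 in magenta. The THZ1 points lie left of the DMSO points in 11 pairs, right of them in 4 and among them for EPRS / PARS2 and RARS / RARS2.

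HARS and HARS2 are neighbors that run in opposite directions on chromosome 5. In RefSeq their start sites lie 84 bases apart (GRCh38.p14, chr5:140691371-140691454), and the sequence between them is shown because it lies before both genes, of which HARS was left at 62.8% and HARS2 at 41.4% of the DMSO level. It is written 5′ to 3′ on the strand of HARS2, with capitals for the letters CCGGAAG of an ETS-type motif on either strand.
HARS and HARS2: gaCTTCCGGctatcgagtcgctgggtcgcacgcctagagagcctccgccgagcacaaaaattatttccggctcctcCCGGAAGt
In the files' build the annotated exons of the 2 genes share 108 bases, so a few reads could belong to either. HARS also shares 1090 bases with WDR55 on the opposite strand and 176 with DND1 on the same strand. HARS2 shares 152 bases with ZMAT2 on the same strand. The part of these overlaps in the counts was not tested.

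The 250 bases before each RefSeq start were searched on both strands for 5 motifs, in the 39 windows of the 30 members with an entry. A member counts if any of its windows holds the letters, whereas the background counts single promoters, so the share of the 39 windows is given as well. HARS and HARS2 share their ETS-type sites, and the windows of SARS and those of EARS2 overlap, so some sites are counted more than once. The ETS-type CCGGAAG was found for 9 of 16 cytosolic and 7 of 14 mitochondrial members (56.2% and 50.0%) and in 46.2% of the windows, beside 8.52% of all 35116 promoters and 10.7% of those of coding genes. The amino acid response element, searched as TGATGNAA, was found for AARS, IARS and GARS (18.8% of the cytosolic members) and for YARS2, in 10.3% of the windows, beside 3.14% of all promoters and 2.35% of those of coding genes. The E-box CACGTG was found for IARS, EARS2 and MARS2, in 7.69% of the windows, beside 6.34% of all promoters and 7.37% of those of coding genes. The NRF1 motif was found for SARS, TARS, IARS2 and MARS2, in 12.8% of the windows, beside 5.07% and 6.56%. TGACGTCA was found for no member, in 1.65% of all promoters and in 2.01% of those of coding genes. A match is a description of letters and not of binding. DARS, LARS, VARS, YARS, AARS2 and VARS2 were not searched.

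Windows of 2 of these genes are printed, IARS as a gene left at 19.8% of its level that holds the amino acid response letters, and MARS2 as a gene not called that holds 3 of the motifs. The windows are IARS at chr9:92293698-92293947 on the minus strand and MARS2 at chr2:197705119-197705368 on the plus strand (RefSeq, GRCh38.p14). Capitals mark TTGCATCA, the reverse complement of the amino acid response letters, in IARS, the E-box in IARS and MARS2, and in MARS2 also the ETS-type and NRF1 letters.
IARS: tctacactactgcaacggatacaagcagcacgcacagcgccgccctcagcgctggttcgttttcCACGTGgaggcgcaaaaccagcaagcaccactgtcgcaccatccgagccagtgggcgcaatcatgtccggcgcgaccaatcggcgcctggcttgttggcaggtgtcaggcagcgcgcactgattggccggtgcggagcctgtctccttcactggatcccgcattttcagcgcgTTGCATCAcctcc
MARS2: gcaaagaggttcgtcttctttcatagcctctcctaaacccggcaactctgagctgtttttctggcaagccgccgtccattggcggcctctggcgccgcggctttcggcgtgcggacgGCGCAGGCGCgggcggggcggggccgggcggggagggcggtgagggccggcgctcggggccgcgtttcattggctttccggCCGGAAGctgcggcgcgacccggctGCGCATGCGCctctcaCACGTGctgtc
The window of GARS, which fell much less than AARS and IARS, holds the response letters too, so the 3 cytosolic genes with a match had log2 fold changes of −2.29, −2.33 and −0.37.

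Levels were compared between genes per transcript length, with the deposited FPKM values. Of the log2 values above 5 in a library, 56.7% to 65.7% recurred exactly in any given other library, also across treatments, so the table holds a shared set of values from a step that the sources used here do not name. Orders within a treatment rest on this table, and its effect on differences between treatments was not tested. With DMSO the cytosolic members had a median of 104 FPKM, from 23.5 for CARS to 203 for FARSA, and the mitochondrial members a median of 26.6 FPKM, from 3.65 for SARS2 to 98.1 for IARS2. FARSA, GARS, KARS and AARS led the order with DMSO, at 203 ± 7.54, 174 ± 7.53, 163 ± 8.29 and 162 ± 7.85 FPKM (SD, n = 3 each), and the libraries of the last 3 overlapped. With THZ1 the order was led by QARS, GARS and MARS, at 153, 116 and 91.4 FPKM, and FARSA had moved from rank 1 to rank 10 and AARS from rank 4 to rank 16. VARS2 moved from rank 27 to rank 7. The cytosolic enzyme held the higher FPKM in all 17 pairs with DMSO and in 14 with THZ1. The exceptions were IARS, at 23.3 FPKM against 62.5 for IARS2, YARS, at 21.4 against 30.1 for YARS2, and FARSB, at 3.25 against 3.60 for FARS2.

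**Figure D3:**
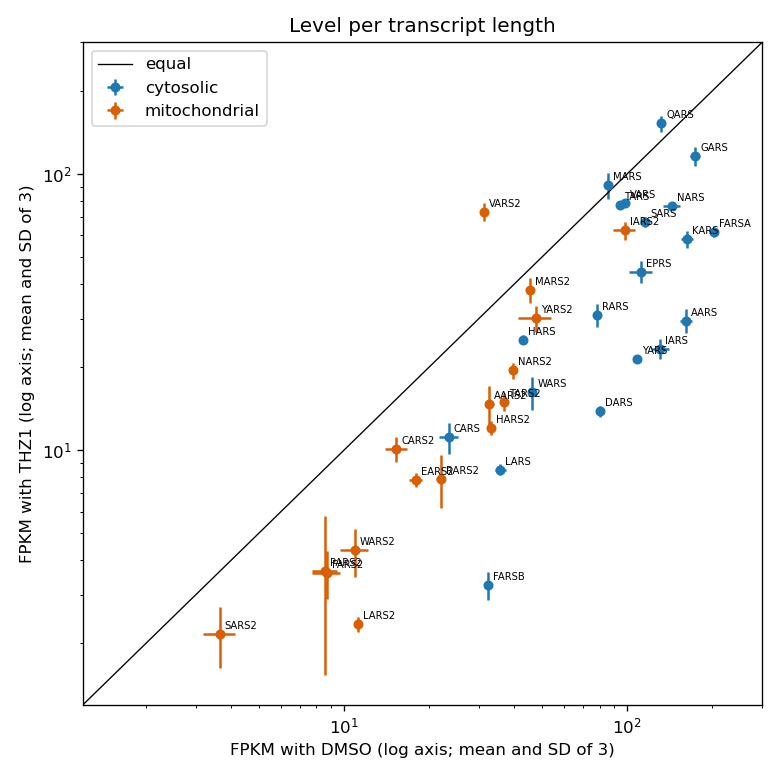
Level per transcript length of each member with DMSO (x axis) and THZ1 (y axis) in FPKM on log axes, as mean and SD of 3 libraries, cytosolic in blue and mitochondrial in orange, with the line of equal levels. QARS, MARS and VARS2 lie above the line and the other 33 below it, including SARS2, which has a higher CPM with THZ1. For MARS the FPKM of the treatments overlap and it was not called there (adjusted p = 0.43 by limma, pseudocount 1).

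By structural class, class I enzymes (18 members) had 14 lower and 3 higher calls and a median log2 fold change of −0.81, and class II (17 members) had 15 lower and none higher and a median of −0.89. Of all genes tested, 41.1% were lower and 43.5% higher. All 3 higher calls were thus in class I in the main fit, but that of MARS was lost in several alternatives. SARS2, of class II, was called higher with upper quartile factors (adjusted p = 0.037) or at least 10 counts in every library (adjusted p = 0.047), and lower in the FPKM table. Of the 8 enzymes of the multisynthetase complex, 6 were lower (DARS, IARS, LARS, KARS, RARS and EPRS) and 2 higher (QARS and MARS), with a median of −1.26. The other 12 cytosolic members had 11 lower and none higher and a median of −0.80. No test was made between these groups. The genes of the 3 scaffold proteins of the complex were all lower, where 41.1% of all genes tested were. EEF1E1 fell from 9.92, 9.59 and 14.3 CPM to 1.58, 1.11 and 2.41 CPM (log2 fold change −2.71, standard error 0.26), AIMP2 fell by 1.40 on the log2 scale, and AIMP1 had a log2 fold change of −0.27 (adjusted p = 0.0048). The call of AIMP1 was lost with upper quartile factors (adjusted p = 0.40), DESeq2 (adjusted p = 0.055) and at least 10 counts in every library (adjusted p = 0.14).

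Mitochondria make glutaminyl-tRNA without a glutamine enzyme of their own, by amidation of a mischarged tRNA. QRSL1, the catalytic subunit of this amidotransferase, fell from 114, 111 and 117 CPM to 17.1, 17.2 and 19.7 CPM (log2 fold change −2.66, standard error 0.09, adjusted p = 4.7e-22). Its partner GATB fell by 1.995 on the log2 scale, whereas the third subunit GATC rose from 22.2 ± 1.75 to 36.7 ± 2.98 CPM (log2 fold change 0.73, adjusted p = 2.3e-07). MTFMT, which formylates the initiator tRNA, was at −0.40 (adjusted p = 0.0056), so 3 of these 4 genes were lower and 1 higher. Among all genes tested, 41.1% were lower and 43.5% higher. The call of MTFMT was lost with upper quartile factors (adjusted p = 0.14), under a minimum of 10 counts per library (adjusted p = 0.063) and without THZ1 replicate 1 (adjusted p = 0.054). QRSL1 was thus left at a smaller share of its DMSO level than any mitochondrial synthetase on the list.

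Of 23 genes of tRNA maturation and export, 22 were tested, 13 were lower, 5 were higher and 4 were not called, with a median of −0.41. Lower calls were 59.1% of those tested, beside 41.1% of all genes tested and 50.6% of those with at least 10 CPM. Higher calls were 22.7%, beside 43.5% and 35.8%. The highest was CLP1, an RNA kinase bound to the tRNA splicing endonuclease, at 2.07. POP5, RPP21, TSEN34 and PRORP were not called. TSEN34 was called higher with RLE (adjusted p = 0.017) or upper quartile factors (0.0011), DESeq2 (0.039), a minimum of 10 counts per library (0.0058) or a replicate block (0.046). It was also called higher without DMSO replicate 3 (adjusted p = 0.0066) or THZ1 replicate 1 (adjusted p = 0.031), but stood at −0.0096 with library sizes alone (adjusted p = 0.94). POP5 was called lower with library sizes alone (adjusted p = 0.0031). RPP21 and PRORP were called lower in the FPKM table (−1.18 and −0.86). XPOT, the exporter of tRNA from the nucleus, fell from 251 ± 22.6 to 139 ± 6.35 CPM (log2 fold change −0.86). Of the selenocysteine genes, SEPSECS was at −0.41 (adjusted p = 0.0070) and PSTK at −0.01 (adjusted p = 0.96). In the FPKM table with a pseudocount of 1, PSTK was called lower (−0.67, adjusted p = 0.0034 by limma).

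The genes listed as elongation factors of translation had median log2 fold changes of −0.34 (cytosolic, 4 tested) and −0.73 (mitochondrial). Of all genes tested, 41.1% were lower and 43.5% higher. All 4 mitochondrial factors were lower, from −0.35 for GFM1 to −1.03 for GFM2. Among the cytosolic factors 3 were lower, with EEF1D lowest at −0.64, and EEF2 was higher, from 2938 ± 70.7 to 4397 ± 103 CPM (log2 fold change 0.58). In the FPKM table EEF2 was not called (log2 fold change 0.05, adjusted p = 0.60 by limma). The lower calls of EEF1B2 (adjusted p = 0.69) and GFM1 (adjusted p = 0.087) were lost with upper quartile factors. That of EEF1B2 was also lost with DESeq2 (adjusted p = 0.053) and at least 10 counts in every library (adjusted p = 0.24). EEF1G was listed at 0 counts in every library and was not tested.

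The amino acid stress genes did not move as a block. Of 12, 7 were higher, 3 were lower and 2 were not called, with a median of 0.98. Higher calls were 58.3% of the list, beside 43.5% of all genes tested, and lower calls 25.0%, beside 41.1%. ATF4 itself rose from 562, 500.4 and 622 CPM to 1352, 1256 and 1266 CPM (log2 fold change 1.201, adjusted p = 8.8e-16), and ATF3 rose by the largest amount of the list (log2 fold change 4.92). PSAT1, an enzyme of serine synthesis, fell from 202, 198 and 208 CPM to 83.1, 68.0 and 69.5 CPM, the lowest of the list at −1.46. ASNS and TRIB3 stood at −0.49 and −0.46. PHGDH (0.01) and SLC7A11 (−0.27) were not called, although PHGDH was called lower with library sizes alone (−0.24) and higher with upper quartile factors (0.20), and SLC7A11 was called lower without DMSO replicate 3 (adjusted p = 0.045) and in the FPKM table (−1.11). ATF4 transcripts were thus higher in libraries in which 17 of 20 cytosolic synthetase genes were lower and 2, QARS and MARS, were higher. AARS, IARS and YARS, among the largest decreases, were left at 20.5%, 19.8% and 21.8% of their DMSO level. GARS and VARS fell less (log2 fold changes −0.37 and −0.18), and TARS was not called. Whether ATF4 bears on any of these genes was not tested.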

How the data were processed

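RNA-SEQ of the 6 NALM6 libraries was analysed from the deposited tables. The authors mapped filtered reads to GRCh37 with STAR and deposited raw counts per gene from htseq-count (the submitters' processing notes also list cutadapt). The annotation and strand setting are not given in the sources used here. A second deposited table holds FPKM from RSEM on a log2 scale, read as log2(FPKM + 1), for 16730 genes, and the authors' p-values, FDR and log2 fold changes in it were not used.

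Genes were filtered with filterByExpr (minimum count 10, minimum total 15), scaled by TMM and tested with edgeR's quasi-likelihood F-test, two-sided, Benjamini-Hochberg over 16622 genes. Standard errors come from the F statistic. DESeq2, other scalings and filters, a replicate block, each library left out, and limma on the FPKM values (pseudocount 1 or 0.1) were the alternatives. Replicate libraries differed by more than sampling noise (chi-square per gene 1.77 to 8.58), and 3 counts correspond to 0.246 to 0.415 CPM, counting error only. The code was tested on simulated counts.

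Members and lists were chosen with earlier results of these data known. Members were named with values in every library when among the 5 highest or lowest of a compartment, not called, overlapping, or in the 3 pairs that changed most, and each list by its highest and lowest gene and those not called. TERF2IP and XPOT, further genes of the short lists and the marker genes' sums were added after values were seen. A few items that this rule names are not reported here. Coordinates are from GENCODE 44 on GRCh37 and promoters from RefSeq on GRCh38.p14. R 4.3.3, edgeR 4.0.16, limma 3.58.1, DESeq2 1.42.0, Python 3.11.15, scipy 1.17.1 and pandas 2.3.3 were used.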

Additional observations from a re-analysis of the deposited data

How the results depend on the processing

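Of the 36 members, 28 kept their direction and their side of the threshold under all 16 alternatives, and the exceptions were MARS, QARS, TARS, VARS, CARS2, MARS2, PARS2 and SARS2. The log2 fold change turned to 0.060 for TARS, 0.016 for VARS and 0.016 for MARS2 with upper quartile factors, and for SARS2 to −0.56, −0.74 and −0.56 in the FPKM table with a pseudocount of 1, of 0.1 and a mean FPKM of at least 1. For QARS the call was lost only in the FPKM table with a pseudocount of 0.1 (0.20, adjusted p = 0.057 by limma). The cause was not tested, beyond the shift that another scaling gives to all genes.

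Higher calls among cytosolic members numbered 2, and were 1 with library sizes alone, 1 and 0 in the FPKM table with a pseudocount of 1 and 0.1, 1 there at a mean FPKM of at least 1, and 1 to 2 with each library left out (1 without THZ1 replicate 1). The single mitochondrial higher call became 2 with upper quartile factors and with at least 10 counts in every library. Mitochondrial members lower by at least 1.5 numbered 0, against 2 with library sizes alone, 1 with no filter, 1 in each FPKM fit and 0 to 1 with each library left out (1 without any DMSO library or without THZ1 replicate 2), and 1 rose by that much with upper quartile factors.

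The cytosolic median of −1.21 was −1.15 with RLE factors and with DESeq2, −1.02 with upper quartile factors, −1.46 with library sizes alone, −1.08 with at least 10 counts everywhere, −1.30 with no filter and −1.32, −1.34 and −1.32 in the FPKM fits. The mitochondrial median of −0.67 was −0.60 with both RLE and DESeq2, −0.48, −0.92, −0.54, −0.76, −1.09, −1.18 and −1.09 in the same order, and −0.80 to −0.63 with each library left out. The median of all genes was 0.10 with RLE and DESeq2, then 0.22, −0.22, −0.027, 0.45, −0.15, −0.18 and −0.17, and 0.036 to 0.062 with each library left out. The scaffold genes had 1 lower call with at least 10 counts everywhere, where EEF1E1 was not tested and AIMP1 was not called, the selenocysteine list had 0 with upper quartile factors, DESeq2 or at least 10 counts everywhere, and the stress genes had 5 lower with library sizes alone. Counts per kilobase of annotated exons gave a cytosolic to mitochondrial ratio of median levels of 5.58 in place of 3.89 from FPKM.

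With a replicate block there were still 17 cytosolic and 13 mitochondrial lower calls, and it changed no call of a member. The deviations of libraries with the same number correlated at −0.00400 to 0.0206, so the number does not pair them.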
